A study of Mus musculus with 23 samples.

Results

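Immediate early genes of neuronal activity were examined in the hippocampus of mouse pups made anemic by repeated bleeding. The 36 genes were taken by symbol from a list of activity-induced transcription factors, synaptic effectors and signalling inhibitors, and all 36 had a row among the 24421 rows of the count table. Of these, 35 passed the filter on low counts and were tested along with 15475 genes in all. The exception was Fosl1, an AP-1 factor, with 17 reads in the 23 libraries together and 0 to 0.203 CPM (counts scaled to a common library size) in a library.

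Polyadenylated RNA of whole hippocampus, dissected on postnatal day 14, was sequenced from 6 groups. Non-bled controls (NBC) of each sex received only a needle prick at the neck, without blood loss. Pups of the moderate group (mPIA, phlebotomy-induced anemia) were bled from day 3 towards a hematocrit of 25%, and pups of the severe group (sPIA) towards 18%. The bleeds, 2 daily, took 5.25 µl per g until that goal was reached, and 1 daily bleed of 3.5 µl per g kept it there to the end. There were 4 libraries of each sex and level but 3 of NBC males, which carry the numbers 2, 3 and 4. By the design, 4 pups per sex and level were sequenced. The labels name no litters and give no time between the last bleed or prick and dissection.

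Immediate early genes are switched on by synaptic activity without the need for new protein. Calcium that enters through NMDA receptors and voltage-gated channels activates kinases, which act on transcription factors already bound to DNA, chiefly CREB at cAMP response elements (CRE) and serum response factor at CArG boxes. The products are transcription factors (the AP-1, EGR and NR4A families and Npas4), proteins that act at the synapse (Arc, Homer1, Nptx2) and phosphatases that switch the kinases off again. In the hippocampus their mRNAs are short-lived and are used to mark neurons that were recently active.

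Promoter letters are shown for 5 members picked after their values were seen, the 3 NR4A receptors, whose levels split in direction, and Egr4 and Fos, which were lower in sPIA than in mPIA pups of both sexes. RefSeq promoters (build GRCm38.p6, 250 bases before to 50 bases after each start) were at hand for 26 of the 36 members, as 33 windows. The CRE half-site TGACG, read on both strands, was found in 20 of the 33 windows (60.6%), against 6837 of all 32851 windows (20.8%). The full CRE TGACGTCA, which contains the half-site, was found in 3 windows (9.09%, in Btg2, Dusp1 and Maff), against 1.79% of all windows. The CArG box stood in 5 windows of Dusp5 and Egr2 (15.2%), against 1.63% of all windows. Some of these windows overlap and hold the same box. Counted by gene, it was found in 2 of 26 members (7.69%), against 1.81% of all genes. The EGR motif GCGNGGGCG stood in 8 windows (24.2%), against 5.55%, and the AP-1 motif TGANTCA in 0, against 7.81%. In the lines that follow, bases before the RefSeq start are written 5′ to 3′ on the gene's own strand, with capitals on each CRE half-site (TGACG, or CGTCA where it lies on the other strand). Nr4a1 (chr15:101266596-101266845, plus strand) has 4 half-sites, Nr4a2 (chr2:57124004-57124253, minus strand) 4, Egr4 (chr6:85513590-85513839, minus strand) 2 and Fos (chr12:85473640-85473889, plus strand) 2. The stretch of Nr4a3 (chr4:48045055-48045152, plus strand) ends where an annotated exon begins and shows 3 of its 4 half-sites. Of other members with plain differences, Junb has 1 half-site in its window and Jund 0. The Jund window (chr8:70697489-70697788, plus strand) ends before the annotated start of the gene at 70698949, so bases next to that start were not searched.
Nr4a1: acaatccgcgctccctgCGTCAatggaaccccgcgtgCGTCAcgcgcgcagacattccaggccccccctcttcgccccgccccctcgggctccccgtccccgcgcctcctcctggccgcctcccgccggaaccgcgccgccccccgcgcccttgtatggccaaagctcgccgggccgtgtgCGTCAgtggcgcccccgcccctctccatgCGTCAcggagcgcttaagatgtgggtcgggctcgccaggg
Nr4a2: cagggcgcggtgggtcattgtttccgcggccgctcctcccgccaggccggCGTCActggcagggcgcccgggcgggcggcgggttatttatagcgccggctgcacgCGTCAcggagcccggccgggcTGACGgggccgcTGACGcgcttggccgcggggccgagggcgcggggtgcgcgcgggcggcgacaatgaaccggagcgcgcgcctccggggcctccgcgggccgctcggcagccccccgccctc
Nr4a3: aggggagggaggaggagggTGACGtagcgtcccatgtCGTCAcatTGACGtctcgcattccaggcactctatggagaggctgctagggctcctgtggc
Egr4: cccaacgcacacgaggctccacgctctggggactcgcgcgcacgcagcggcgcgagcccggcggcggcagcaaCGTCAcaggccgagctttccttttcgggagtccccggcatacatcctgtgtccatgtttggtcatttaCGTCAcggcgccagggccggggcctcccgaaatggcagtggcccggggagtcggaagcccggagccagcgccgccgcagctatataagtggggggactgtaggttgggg
Fos: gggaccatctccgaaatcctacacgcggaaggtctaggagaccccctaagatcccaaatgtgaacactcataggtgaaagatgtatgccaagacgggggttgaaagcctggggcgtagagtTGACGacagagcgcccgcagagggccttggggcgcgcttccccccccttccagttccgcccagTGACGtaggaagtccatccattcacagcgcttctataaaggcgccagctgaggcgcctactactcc
The 3 NR4A genes thus all have half-sites near their starts. Whether CREB binds at these sites, and their part in any change of mRNA level, was not tested.

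The libraries held 15234793 to 26355712 counts each, and mPIA female 3 held 44362539. All 8 hippocampal excitatory neuron markers were detected in every group, with sums of 2080 to 2800 CPM. Markers of choroid plexus epithelium, a tissue next to the hippocampus, separated the NBC males. Their 10 genes summed to 19.1 CPM in NBC male 2, and to 2640 and 4680 CPM in NBC males 3 and 4. NBC male 2 was also the control with the highest immediate early genes, with 29 of 35 members above the mean of its group (median deviation 0.27 on the log2 scale, against -0.07 and -0.16 in NBC males 3 and 4). In females, choroid plexus sums were high in NBC female 2 (2120 CPM) and sPIA female 2 (1410 CPM). The members' median deviation from the mean of the library's own group was -0.01 and -0.02 there. Library numbers in the sample descriptions ran with the groups (13 to 20 in sPIA, 41 to 44 in mPIA males, 38 to 40 in NBC males), except that those of mPIA and NBC females were interleaved (48 to 55). A run or batch behind these numbers therefore cannot be told apart from severe anemia, nor from either anemia level in males.

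**Figure D1:**
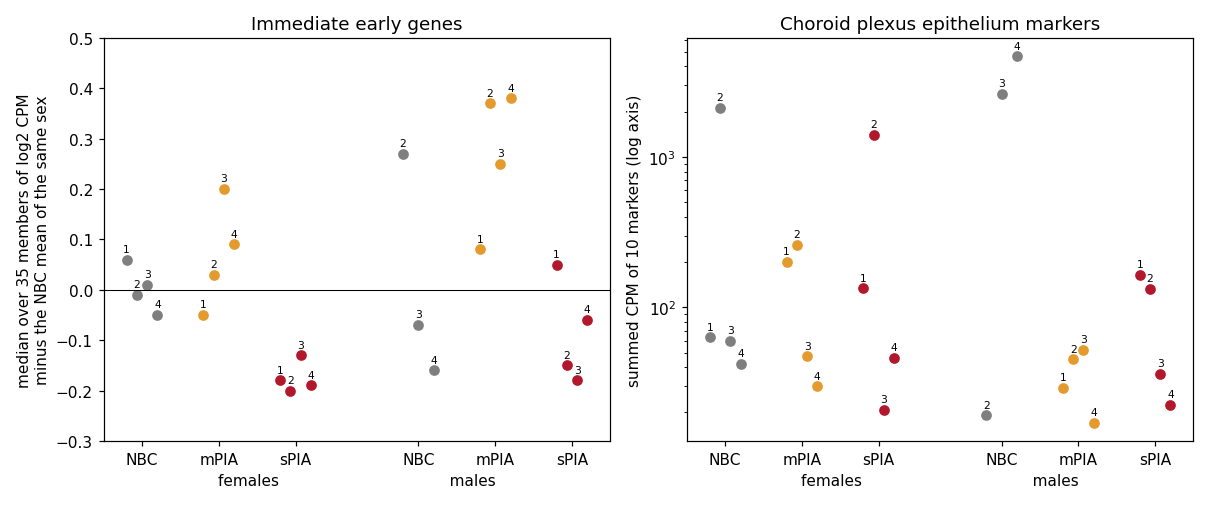
Each point is a library, labelled with its replicate number, in NBC, mPIA and sPIA pups of each sex. Left, the median over the 35 members of log2 CPM minus the NBC mean of the same sex; right, the summed CPM of 10 choroid plexus markers on a log axis. The 4 sPIA females lie between -0.20 and -0.13. NBC male 2, at 0.27, lies apart from the other NBC males, which have the highest choroid plexus sums. The sums of NBC female 2 and sPIA female 2 are high too.

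Per length of the longest annotated transcript, the members spanned a wide range of levels. Jund (32.8 RPKM, here CPM per kilobase of that transcript), Arc (31.2 RPKM), Egr1 (30.1 RPKM), Nr4a3 (30 RPKM) and Dusp6 (29.6 RPKM) had the highest mean levels over all libraries. Fos, the best known of these genes, stood at 7.08 RPKM and Npas4 at 3.31 RPKM. The lowest tested members were Maff (0.734 RPKM), Atf3 (0.423 RPKM) and Inhba (0.337 RPKM). Between pups of the same group, the SD of log2 CPM had a median of 0.23 over the 35 members and 0.17 over all genes tested, and also 0.17 over the 12837 genes whose mean levels lay in the members' range. It was widest for Fosb (0.58) and narrowest at 0.09. The members thus varied somewhat more between like-treated pups than most genes did, which sets how large a change could be called.

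Severe anemia in females went with changes of members in both directions. Against NBC females, 4 of 35 members were higher (Egr3, Nr4a3, Klf10 and Homer1) and 6 lower (Fosl2, Junb, Jund, Egr4, Nr4a1 and Nr4a2) at an adjusted p under 0.05 in edgeR's quasi-likelihood test with Benjamini-Hochberg adjustment over all genes. Of all genes tested, 16% were called in this comparison, 8.12% higher and 7.86% lower, so the members' 10 calls are to be read against a broad background. The median log2 change of the members was -0.16 and that of all genes 0.00. With the trend by GC content of the transcripts removed from each library, the members' median was -0.03. In 3 members every sPIA female lay above every NBC female and in 8 below, against 9.85% and 11.2% of all genes. Whole-tissue RNA cannot tell fewer cells of a type from less RNA per cell, here or in the other comparisons. Markers of other cells also moved in sPIA females. The 8 astrocyte markers summed to 2500 to 2570 CPM in NBC females, 2480 to 2630 CPM in mPIA females and 2710 to 3150 CPM in sPIA females. Against NBC females all 8 had positive log2 changes (median 0.08), and Sox9 (0.76) and Slc1a3 (0.30) were called higher. The endothelial marker Flt1 and the excitatory neuron marker Neurod6 were also called higher there, each as 1 of 8 in its list. The part of these cells in the members' changes was not tested.

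Moderate anemia gave few calls. In mPIA females against NBC females 0 of 35 members were called, with 0.00646% of all genes called, and 0 passed an unadjusted p under 0.05, where 0.355% of all genes did. DESeq2 and limma-voom also called 0. With no effect, a share of about 0.05 of all genes would pass that unadjusted threshold, so edgeR's test was strict in this comparison. The 0 calls therefore do not show that small changes were absent. In mPIA males against NBC males 1 member, Nr4a1, was higher, with 0.653% of all genes called (0.155% higher). A further 9 members were higher at an unadjusted p under 0.05 and 1 was lower, where 8.08% and 7.92% of all genes were. In mPIA females, 29 of the 35 members had a positive log2 change (median 0.07), against 46.4% of all genes (median -0.01). The libraries differed, with 15, 22, 33 and 26 of the 35 members above the NBC mean in mPIA females 1, 2, 3 and 4. Their median deviations from that mean were -0.05, 0.03, 0.20 and 0.09, highest in mPIA female 3, the library with the most counts. In mPIA males 30 of the 35 had a positive log2 change (median 0.26), against 51.7% of all genes (median 0.01). With choroid plexus markers as a covariate, as described with Nr4a1, the median was 0.10, with 24 members positive.

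Between the anemia levels, immediate early genes were mostly lower in severe anemia. In sPIA against mPIA males, 0 members were higher and 9 lower (Fos, Junb, Egr1, Egr4, Nr4a1, Npas4, Arc, Dusp1 and Dusp5), with 4.92% of all genes called (2.13% higher and 2.8% lower). The median change was -0.30, with 8 of 35 members positive, against 49.1% of all genes. In 10 members every sPIA male lay below every mPIA male and in 0 above, against 5.76% and 4.84% of all genes. Cell markers moved between these males too. Of the 8 excitatory neuron markers, 7 had negative log2 changes (median -0.14) and 0 were called. Their sums were 2080 to 2610 CPM in sPIA males and 2590 to 2770 CPM in mPIA males. The microglial marker P2ry12 and the astrocyte marker Aqp4 were called higher, each as 1 of 8 in its list. The part of these cells in the members' changes was not tested. The sPIA females had 4 members higher than mPIA females (Egr3, Nr4a3, Klf10 and Homer1) and 9 lower (Fos, Fosl2, Junb, Jund, Egr4, Nr4a1, Nr4a2, Ier5 and Trib1), with 16.1% of all genes called (8.67% higher and 7.48% lower), and the median was -0.26, or -0.14 with the GC trend removed and -0.15 without mPIA female 3. In sPIA against NBC males 0 members were called, with 0.194% of all genes called. There 0 members were higher and 5 lower at an unadjusted p under 0.05, where 5.23% and 6.91% of all genes were, and DESeq2 called 1, Fosl2. The comparisons of one sex share libraries: sPIA enters 2 of them, as do mPIA and NBC.

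**Figure D2:**
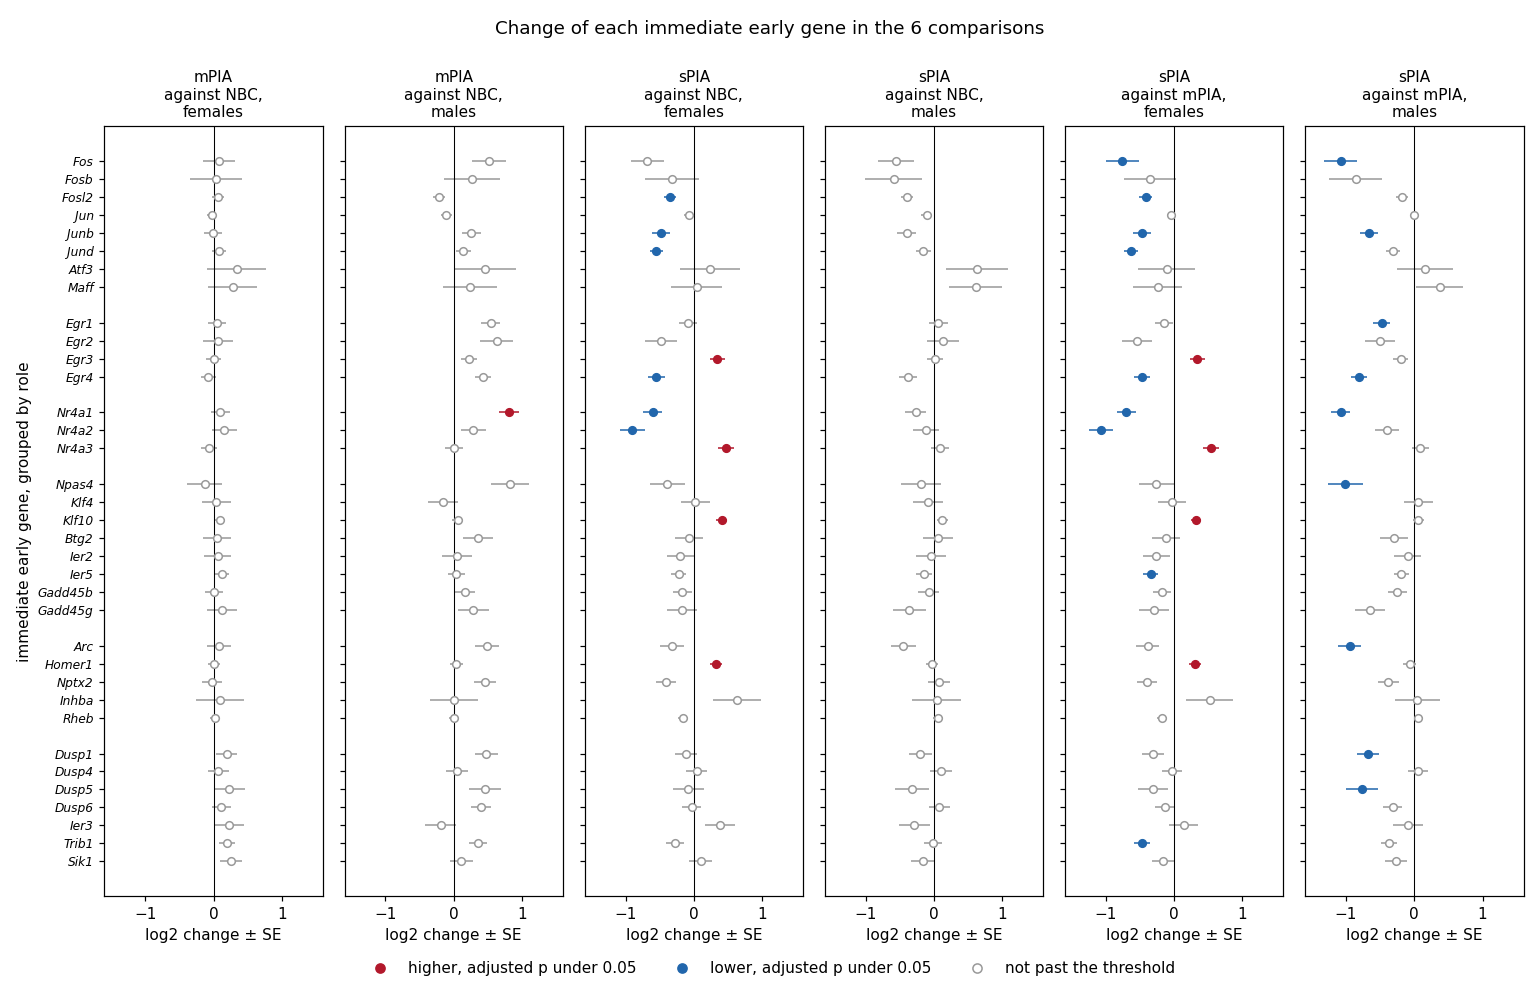
Log2 change and its standard error (SE) for the 35 tested members, grouped by role down the page, in the 6 comparisons. Filled red points were higher and filled blue points lower at an adjusted p under 0.05, and open points did not pass. The mPIA against NBC panel of females holds 0 filled points, and the sPIA against mPIA panel of males holds 9 blue points and 0 red ones.

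The NR4A receptors are orphan nuclear receptors that act as transcription factors without a known ligand-driven switch, and all 3 are CREB targets. Nr4a1 (Nur77, chr15:101254269-101274795 in mm10, plus strand) had the smallest p of the members in sPIA against mPIA males. In males it stood at 54.2, 37.8 and 27.3 CPM in NBC, at 62.8, 73.9, 70.8 and 71.9 CPM in mPIA and at 32.9, 34.4, 30.9 and 34 CPM in sPIA. All mPIA males lay above all NBC and all sPIA males, while sPIA and NBC males overlapped. The log2 change was 0.81 (SE 0.15, adjusted p = 0.0168) in mPIA against NBC males and -1.08 (SE 0.14, adjusted p = 2.69e-04) in sPIA against mPIA males.

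The call of Nr4a1 in mPIA males was lost without any one of 4 libraries and in 2 other fits. Its adjusted p was 0.0674 without NBC male 3, 0.136 without NBC male 4 (log2 change 0.61), 0.0542 without mPIA male 2 and 0.0554 without mPIA male 4. With only NBC and mPIA males in the fit it was 0.227, and with the mean choroid plexus marker level as covariate 0.88 (log2 change 0.56). Without NBC male 2, the one with few choroid plexus reads, 11 members were higher in mPIA males, as were 3.97% of all genes, among them Npas4 (1.40, adjusted p = 0.00161), Fos (0.96, adjusted p = 0.0158) and Arc (0.84, adjusted p = 0.00202). Choroid plexus markers summed to 17.1 to 52 CPM in mPIA males and 19.1 to 4680 CPM in NBC males, and their part in the result was not tested beyond the covariate fit.

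In females Nr4a1 stood at 64.4, 54.1, 57 and 52 CPM in NBC, at 54.4, 57.9, 71.7 and 58.8 CPM in mPIA and at 31.4, 37.9, 44.7 and 35.9 CPM in sPIA. All sPIA females lay below all others, by -0.60 on the log2 scale against NBC (SE 0.14, adjusted p = 0.00527) and -0.70 against mPIA (SE 0.14, adjusted p = 0.00133). Nr4a2 (Nurr1, chr2:57106830-57124003, minus strand), needed for dopamine neurons and also expressed in cortex and hippocampus, was lower in sPIA females too. It stood at 90.65, 64.58, 79.47 and 73.47 CPM in NBC females, at 82.49, 91.21, 85.95 and 85.58 CPM in mPIA females and at 37.8, 43.7, 40 and 43.1 CPM in sPIA females. The 4 sPIA females were again below all others, at -0.90 against NBC (SE 0.18, adjusted p = 0.00276) and -1.07 against mPIA (SE 0.18, adjusted p = 6.28e-04). In males Nr4a2 stood at 64.5, 53.6 and 85.9 CPM in NBC, at 69.8, 93.8, 74.1 and 93.5 CPM in mPIA and at 55.2, 92.3, 43.4 and 59.5 CPM in sPIA. Those groups overlapped, and sPIA male 2 was as high as the highest mPIA males.

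The 5 markers of thalamus and cortex next to the hippocampus did not move together in females. Fezf2, a gene of deep cortical neurons, was lower, at 24.4 ± 3.38 CPM in sPIA females and 49.7 ± 4.11 CPM in NBC females (SD, n = 4 each, log2 change -1.03, adjusted p = 3.94e-05 in edgeR's test). Against NBC females, Slc17a6 stood at -0.59, Prkcd at 0.80, Tcf7l2 at 0.40 and Rorb at 0.27, and these 4 did not pass. Against mPIA females, Fezf2 was called lower and Rorb higher (0.36). In sPIA against mPIA males Fezf2 was called lower as well, as 1 of the 5. The 5 genes summed to 106 to 135 CPM in sPIA females and 112 to 154 CPM in NBC females. The part of such tissue in the result was not tested.

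Nr4a3 (Nor1) went the other way in females. It averaged 202 ± 28.6 CPM in sPIA females and 146 ± 20.1 CPM in NBC females (SD, n = 4 each). The change was 0.47 (SE 0.12, adjusted p = 0.0119), and 0.54 (SE 0.12, adjusted p = 0.00458) against the 139 ± 13.3 CPM of mPIA females. All sPIA females were above all NBC and mPIA females. In males the changes of Nr4a3 were 0.09 against NBC, 0.00 for mPIA against NBC and 0.09 for sPIA against mPIA, all short of the threshold. The 3 receptors of one family therefore split in sPIA females, with 2 lower and 1 higher.

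**Figure D3:**
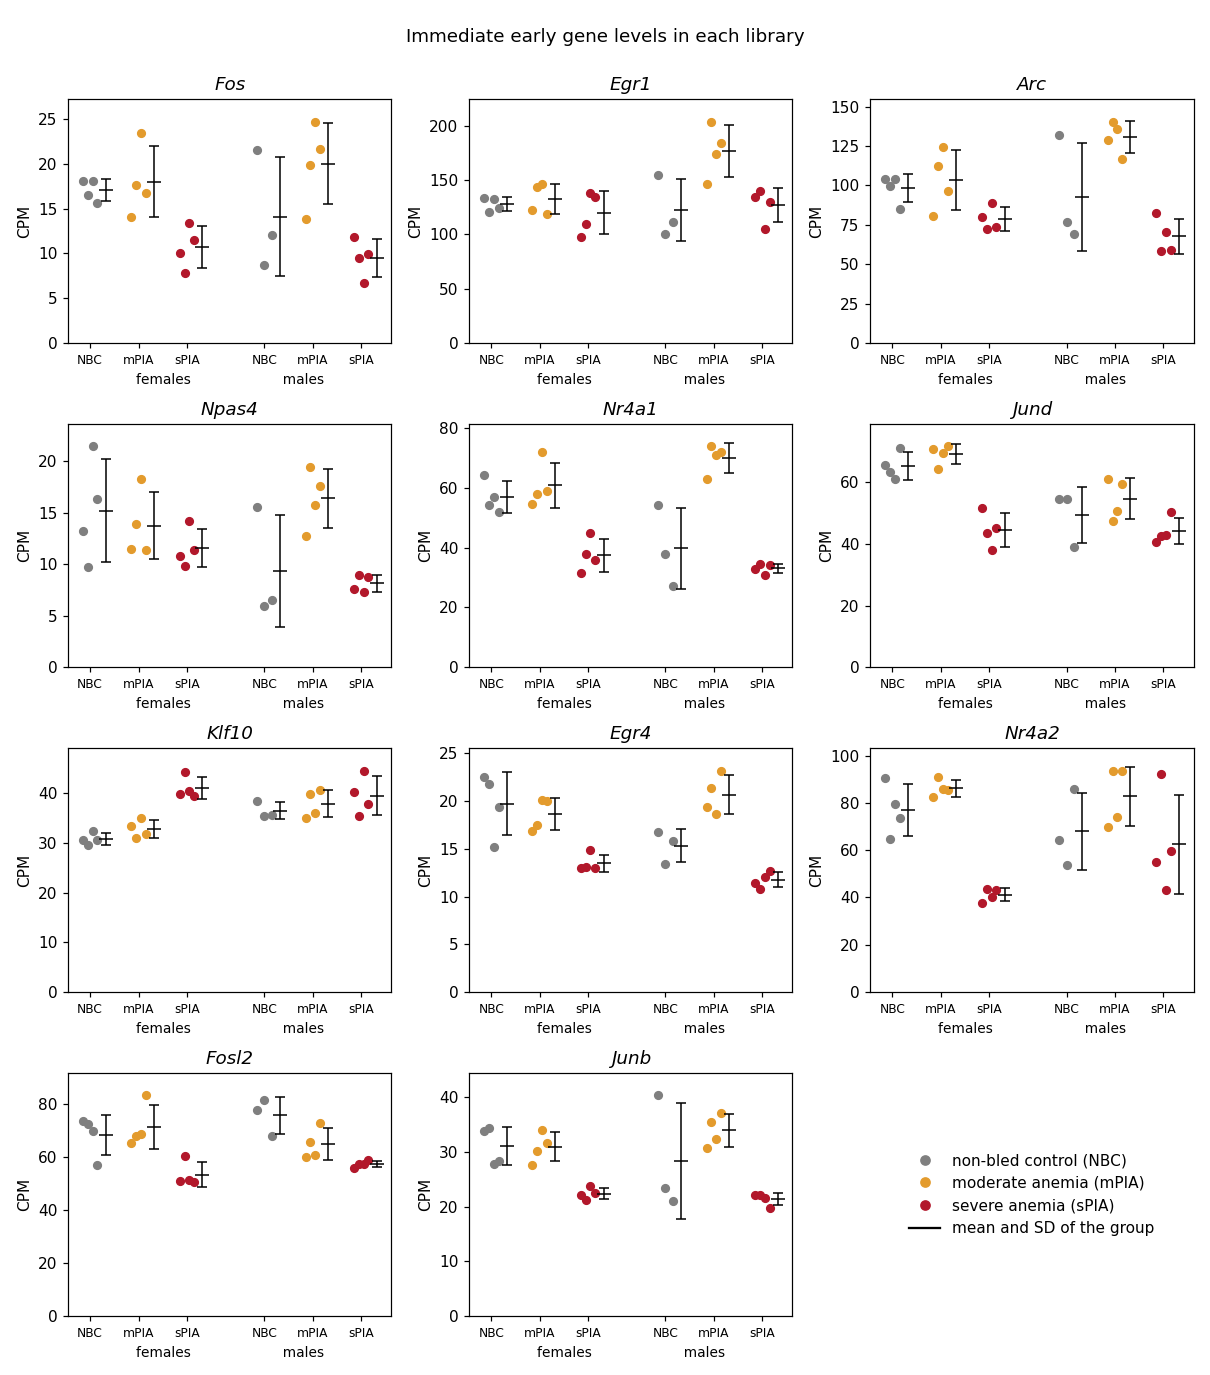
CPM in each library for the 11 members whose every value is given, with NBC, mPIA and sPIA of females left and of males right in each panel. Points are libraries, and the black line with caps is the mean and SD of the group. Nr4a2 lies at 37.8 to 43.7 CPM in the 4 sPIA females, below all other females, and Nr4a1 and Egr4 lie lower in all sPIA males than in all mPIA males.

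The AP-1 factors pair as Fos-Jun dimers at AP-1 sites. Of the 8 tested, 0 were called higher in any comparison, where at most 8.67% of all genes were. Called lower were 3 in sPIA against NBC females, 4 in sPIA against mPIA females and 2 in sPIA against mPIA males. Of all genes, 7.86%, 7.48% and 2.8% were called lower there. Fos (chr12:85473890-85477273, plus strand) stood in males at 21.5, 8.66 and 12.1 CPM in NBC, at 13.9, 19.9, 24.7 and 21.6 CPM in mPIA and at 11.8, 9.51, 6.69 and 9.96 CPM in sPIA. All sPIA males were below all mPIA males (log2 change -1.08, SE 0.24, adjusted p = 0.0158), while NBC males spanned both. In females Fos stood at 18.1, 16.5, 18.1 and 15.6 CPM in NBC, at 14.1, 17.6, 23.5 and 16.7 CPM in mPIA and at 10.02, 7.83, 13.4 and 11.51 CPM in sPIA. The sPIA females lay below all other females, but the change passed against mPIA only (-0.76, SE 0.24, adjusted p = 0.0322) and not against NBC (-0.68, SE 0.24, adjusted p = 0.0588). Against mPIA females it was lost without mPIA female 2 (0.0601), mPIA female 3 (0.128), sPIA female 1 (0.065), sPIA female 2 (0.1) or sPIA female 4 (0.0551), values that are adjusted p.

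Jund, an AP-1 member that is expressed at a steady level in many cells, fell in sPIA females. It stood at 65.5, 63.3, 61 and 71.3 CPM in NBC females, at 70.8, 64.3, 69.5 and 71.7 CPM in mPIA females and at 51.6, 43.6, 38.1 and 45.1 CPM in sPIA females. The sPIA females did not overlap with the others (log2 change -0.55 against NBC, SE 0.10, adjusted p = 6.99e-04, and -0.63 against mPIA, SE 0.10, adjusted p = 1.31e-04). In males Jund stood at 54.7, 54.5 and 39.1 CPM in NBC, at 61.2, 47.6, 50.6 and 59.3 CPM in mPIA and at 40.7, 42.7, 43.1 and 50.4 CPM in sPIA. Those ranges overlapped, and the change in sPIA against mPIA males was -0.31 (adjusted p = 0.0738), or -0.37 (0.0323) without sPIA male 4.

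Junb, which tempers the activity of Jun, was lower in sPIA than in mPIA pups of both sexes and lower in sPIA than in NBC females. It stood at 33.7, 34.2, 27.8 and 28.4 CPM in NBC females, at 27.6, 30.2, 34 and 31.6 CPM in mPIA females and at 22.1, 21.2, 23.7 and 22.4 CPM in sPIA females. In males it stood at 40.3, 23.4 and 21 CPM in NBC, at 30.7, 35.4, 32.2 and 37.1 CPM in mPIA and at 22.2, 22.1, 21.5 and 19.8 CPM in sPIA. All sPIA pups were thus below all mPIA pups of their sex, with changes of -0.47 in females (SE 0.13, adjusted p = 0.0149) and -0.66 in males (SE 0.13, adjusted p = 0.0064). Against NBC females the change was -0.48 (SE 0.13, adjusted p = 0.0152), with an adjusted p of 0.058 without NBC female 1 and 0.0543 without NBC female 2, and the change against mPIA females had an adjusted p of 0.0598 without mPIA female 3. Against NBC males it was -0.40 (adjusted p = 0.242), with NBC male 4 within the range of the sPIA males. With the GC trend removed, Junb passed in 0 comparisons (adjusted p 0.282 against NBC females, 0.218 against mPIA females and 0.065 against mPIA males). Exons of Junb overlap those of Prdx2 and exons of Jund those of Gm11175 on the opposite strand, and the strand setting of the counting is not given, so these counts could include reads of the partner.

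Fosl2, a Fos relative that responds more slowly, stood at 73.5, 72.2, 69.7 and 57.1 CPM in NBC females, at 65.3, 67.9, 68.6 and 83.3 CPM in mPIA females and at 51, 60.4, 51.4 and 50.5 CPM in sPIA females. All sPIA females were below all mPIA females (-0.42, SE 0.09, adjusted p = 0.00156), and sPIA female 2 overlapped with NBC female 4 (-0.35 against NBC, SE 0.09, adjusted p = 0.00684). In males Fosl2 stood at 77.5, 81.4 and 68 CPM in NBC, at 60.1, 65.6, 60.6 and 72.9 CPM in mPIA and at 55.8, 57.3, 57.2 and 58.9 CPM in sPIA. All sPIA males lay below all NBC males, at a change of -0.40 (SE 0.09, adjusted p = 0.0668) that passed in DESeq2 only (adjusted p = 0.0162). Jun itself passed in 0 of the 6 comparisons, with changes of -0.11 to 0.00, and the low-expressed Atf3 and Maff, with SEs of 0.35 to 0.46, could not have shown a small change.

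The EGR zinc fingers bind GC-rich sites, and Egr1 is the member most used as a marker of plasticity. Egr4 (chr6:85511121-85513589, minus strand) was lower in sPIA than in mPIA pups of both sexes and lower in sPIA than in NBC females. In males it stood at 16.8, 13.4 and 15.9 CPM in NBC, at 19.4, 21.4, 18.7 and 23.2 CPM in mPIA and at 11.4, 10.8, 12.1 and 12.7 CPM in sPIA. The 3 levels did not overlap in males, with mPIA highest and sPIA lowest. The change was -0.81 in sPIA against mPIA males (SE 0.12, adjusted p = 3.18e-04), but 0.43 in mPIA against NBC (adjusted p = 0.0821) and -0.38 in sPIA against NBC (adjusted p = 0.2) did not pass. In females Egr4 stood at 22.5, 21.8, 15.2 and 19.4 CPM in NBC, at 16.8, 17.5, 20.2 and 20.1 CPM in mPIA and at 12.99, 13.09, 14.84 and 12.97 CPM in sPIA. The sPIA females were below all others (-0.55 against NBC, SE 0.12, adjusted p = 0.00197, and -0.47 against mPIA, SE 0.12, adjusted p = 0.00562).

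Egr1 stood in males at 154, 101 and 111 CPM in NBC, at 146, 204, 174 and 184 CPM in mPIA and at 134, 140, 105 and 130 CPM in sPIA. The sPIA males were below all mPIA males (-0.48, SE 0.13, adjusted p = 0.0408) but not below NBC males (0.06). That call was lost without any one of 6 libraries (mPIA males 2, 3 and 4 and sPIA males 1, 2 and 3), with an adjusted p of up to 0.107. It was also lost with no low-count filter (0.0591), with choroid plexus markers as a covariate (0.0553) and with the GC trend removed (-0.34, adjusted p = 0.267). In females Egr1 stood at 134, 121, 133 and 124 CPM in NBC, at 122, 143, 146 and 119 CPM in mPIA and at 97.2, 109, 138 and 134 CPM in sPIA. These groups overlapped, and no change passed. Egr3 was the one member of the family that rose in sPIA females, to 117 ± 10.6 CPM in sPIA females against 92.8 ± 4.62 CPM in NBC females (SD, n = 4 each, log2 change 0.34, SE 0.11, adjusted p = 0.043), with all sPIA females above. Egr2, at 1.31 RPKM the lowest of the family, had a change of -0.48 there that did not pass (adjusted p = 0.164).

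Among the other nuclear regulators, Npas4 is a bHLH-PAS factor induced in neurons by calcium entry and hardly by other stimuli. In males it stood at 15.6, 5.95 and 6.54 CPM in NBC, at 12.7, 19.5, 15.7 and 17.6 CPM in mPIA and at 7.6, 8.96, 7.3 and 8.73 CPM in sPIA. All sPIA males were below all mPIA males (-1.01, SE 0.26, adjusted p = 0.0314), and NBC male 2 was level with the mPIA males. The call was lost without any one of 5 libraries (mPIA males 2 and 4 and sPIA males 1, 2 and 3), with an adjusted p of up to 0.0921. In females Npas4 stood at 13, 9.7, 21 and 16 CPM in NBC, at 11, 14, 18 and 11 CPM in mPIA and at 11, 9.9, 14 and 11 CPM in sPIA. The NBC females spanned nearly the whole range, and no change passed.

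Klf10, a Krüppel-like factor also induced by TGF-beta, rose in sPIA females. It stood at 30.7, 29.6, 32.5 and 30.6 CPM in NBC females, at 33.4, 31, 35 and 31.9 CPM in mPIA females and at 39.9, 44.3, 40.6 and 39.4 CPM in sPIA females. All sPIA females were above all others (0.41 against NBC, SE 0.08, adjusted p = 7.93e-04, and 0.32 against mPIA, SE 0.08, adjusted p = 0.00485). In males Klf10 stood at 38.5, 35.4 and 35.6 CPM in NBC, at 35.1, 39.9, 36.1 and 40.7 CPM in mPIA and at 40.4, 35.5, 44.6 and 37.8 CPM in sPIA, which overlapped throughout. Ier5 was lower in sPIA against mPIA females (-0.34, adjusted p = 0.0338). The remaining 5 of this group (Klf4, Btg2, Ier2, Gadd45b and Gadd45g) passed in 0 of the 6 comparisons.

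Of the effectors, Arc binds endocytic proteins and removes AMPA receptors from synapses. In males Arc (chr15:74669083-74672570, minus strand) stood at 132, 76.8 and 69.1 CPM in NBC, at 129, 141, 136 and 117 CPM in mPIA and at 82.2, 58.6, 70.7 and 59.2 CPM in sPIA. All sPIA males were below all mPIA males (-0.95, SE 0.17, adjusted p = 0.00602). NBC male 2 was level with mPIA males, and NBC males 3 and 4 were level with sPIA males. In females Arc stood at 104, 99.5, 104 and 85.1 CPM in NBC, at 80.5, 113, 125 and 96.6 CPM in mPIA and at 80.1, 72.6, 89.1 and 73.8 CPM in sPIA. The ranges overlapped, and the change of -0.32 against NBC females did not pass (SE 0.17), although it did with only those 2 groups in the fit (adjusted p = 0.0171).

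Homer1, a postsynaptic scaffold whose short activity-induced form blocks its long forms, rose in sPIA females. It averaged 145 ± 18.2 CPM in sPIA females and 116 ± 11 CPM in NBC females (SD, n = 4 each, log2 change 0.32, SE 0.09, adjusted p = 0.0153), with overlap. Counts per gene do not separate the short form. Nptx2, a secreted pentraxin that clusters AMPA receptors, averaged 39 ± 7.34 CPM in sPIA females and 52 ± 4.16 CPM in NBC females (SD, n = 4 each) without overlap, at a log2 change of -0.41 that did not pass (adjusted p = 0.0584). Inhba and Rheb passed in 0 of the 6 comparisons.

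The feedback inhibitors include dual-specificity phosphatases that switch off ERK and other MAP kinases. Dusp1 averaged 12.1 ± 2.02 CPM in sPIA males and 19.4 ± 4.47 CPM in mPIA males (SD, n = 4 each, log2 change -0.68, SE 0.16, adjusted p = 0.0166), with overlap. Dusp5 averaged 4.36 ± 1.65 CPM in sPIA males and 7.47 ± 0.275 CPM in mPIA males (SD, n = 4 each, -0.77, SE 0.23, adjusted p = 0.0447), without overlap. Exons of both overlap those of a gene on the opposite strand. Trib1, a pseudokinase, fell in sPIA against mPIA females (-0.47, SE 0.12, adjusted p = 0.00923). Dusp4, Dusp6, Ier3 and Sik1 passed in 0 of the 6 comparisons, among them Dusp6, a readout of ERK activity, at -0.03 in sPIA against NBC females.

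The effect of anemia was compared between the sexes directly, as the female minus the male log2 change. For mPIA 0 of 35 members differed, with 0% of all genes called. At an unadjusted p under 0.05 there were 1 higher and 5 lower, where 7.13% of all genes passed. For sPIA 0 of 35 differed, with 0.95% of all genes called. At an unadjusted p under 0.05 there were 4 higher and 4 lower, where 16.5% of all genes passed. In the edgeR test the member with the smallest p for mPIA was Nr4a1, at 0.10 in females and 0.81 in males (difference -0.71, SE 0.20, adjusted p = 0.633). For sPIA it was Nr4a2, at -0.90 in females and -0.12 in males (difference -0.79, SE 0.27, adjusted p = 0.151). Without NBC male 2 the mPIA difference passed for Nr4a1 (-1.0, adjusted p = 0.00666), Npas4 (-1.52, adjusted p = 0.0264) and Junb (-0.61, adjusted p = 0.0449), and the sPIA difference for Nr4a1 (-0.62, adjusted p = 0.0495). Calls over all genes also grew without that library. In mPIA against NBC males 3.97% of all genes were then called higher, against 0.155% with it. The share of all genes called for the sex differences themselves is not given for that fit. The calls in sPIA females and in mPIA males are therefore not shown to be particular to that sex.

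Log2 changes ran with the GC content of the transcripts in the severe comparisons and, in the other direction, in mPIA against NBC males. Over all genes, the median log2 change in sPIA against NBC females was 0.17, 0.05, -0.05 and -0.16 over 4 classes of equal size, from the lowest GC content to the highest. In sPIA against mPIA males these medians were 0.11, 0.03, -0.04 and -0.14. They rose with GC content in mPIA against NBC males, at -0.06, -0.02, 0.03 and 0.09. For sPIA against NBC males they were 0.06, 0.02, -0.02 and -0.05. Of the 35 members, 18 lay in the top class (54.6% to 74.5% GC), with Egr4 at 68.2%, Jund at 67.1% and Junb at 62.6%, while Homer1 had 36.9%. With each library's GC trend removed, Nr4a2 (-0.94, adjusted p = 0.00358), Jund (-0.24, adjusted p = 0.0374), Fosl2 (-0.27, adjusted p = 0.0426), Klf10 (0.36, adjusted p = 0.00313), Nr4a3 (0.45, adjusted p = 0.0309) and Egr3 (0.38, adjusted p = 0.0479) were still called in sPIA against NBC females, with 9.07% of all genes called. Nr4a1 (-0.44, adjusted p = 0.0531), Egr4 (-0.20, adjusted p = 0.355), Junb (-0.23, adjusted p = 0.282) and Homer1 (0.03, adjusted p = 0.848) were not, and Rheb passed (-0.25, adjusted p = 0.0136). Between sPIA and mPIA males 4 members were still called, Nr4a1 (-0.95, adjusted p = 0.00219), Egr4 (-0.51, adjusted p = 0.0302), Arc (-0.78, adjusted p = 0.0345) and Fos (-1.03, adjusted p = 0.0389), with 1.53% of all genes called. Between sPIA and mPIA females 8 of the 13 were still called and Rheb was called too (-0.28, adjusted p = 0.00547), with 10.5% of all genes called. The 5 lost there were Fos (-0.70), Junb (-0.25), Egr4 (-0.17), Ier5 (-0.27) and Homer1 (0.02).

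**Figure D4:**
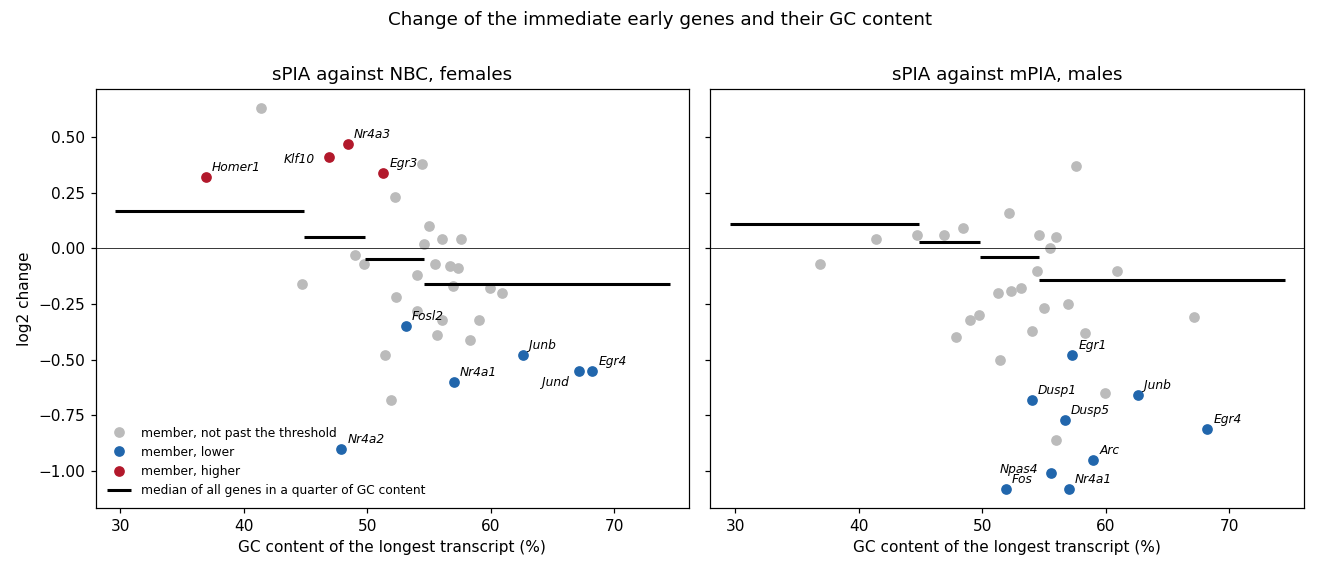
GC content of the longest transcript (%) against the log2 change of the 35 members in sPIA against NBC females (left) and sPIA against mPIA males (right). Red points were higher, blue points lower and grey points not past the threshold, and black bars are the medians of all genes in 4 equal classes of GC content. The bars step down by GC content, with medians of 0.17 at the lowest and -0.16 at the highest on the left, and the points that lie well below the bar of their class include Nr4a2, Nr4a1 and Fos on the left and Nr4a1, Arc and Fos on the right.

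The machinery that induces these genes was counted from a list of 30 genes (calcium channels, kinases, CREB, MEF2 and serum response factor partners). In sPIA against NBC females 8 were higher and 2 lower, where 8.12% and 7.86% of all genes were, with Creb1 at 0.50 (SE 0.08, adjusted p = 2.9e-04), Ppp3ca, a calcineurin subunit, at 0.42 (SE 0.08, adjusted p = 9.66e-04), Mef2a at 0.30 and Map2k2 at -0.35. The difference of the sPIA effect between the sexes passed for Creb1 (0.50 in females and 0.01 in males, difference 0.49, SE 0.12, adjusted p = 0.0488), but not with the GC trend removed (0.34, adjusted p = 0.0649). Between sPIA and mPIA males 2 of the 30 were higher and 4 lower, where 2.13% and 2.8% of all genes were, among them Grin1, the shared NMDA receptor subunit (-0.32, adjusted p = 0.00793), and Camk4, a kinase of CREB (0.66, adjusted p = 0.013). Against mPIA females, 8 were higher and 1 lower in sPIA females, where 8.67% and 7.48% of all genes were, and 0 were called in the other 3 comparisons.

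A list of 25 further activity-regulated genes, many of them later targets, was also mixed. In sPIA against NBC females 4 were higher and 4 lower (8.12% and 7.86% of all genes), with Nrn1, a neurite growth factor, at 0.46 (SE 0.07, adjusted p = 5.7e-05) and Bdnf at 0.41 (SE 0.11, adjusted p = 0.0116). Vgf, a secreted neuropeptide precursor, stood at -0.40 (adjusted p = 0.00209) and Crhbp at -0.79 (adjusted p = 0.00366). With the GC trend removed, Bdnf (0.22, adjusted p = 0.225) and Vgf (-0.13, adjusted p = 0.241) no longer passed. Against mPIA females, 3 were higher and 4 lower in sPIA females (8.67% and 7.48% of all genes), with Bdnf at 0.51 (adjusted p = 0.00205). In sPIA against mPIA males 0 were higher and 4 lower (Per1 -0.63, Vgf -0.33, Mapk4 -0.37 and Plk2 -0.35), where 2.13% and 2.8% of all genes were called, and 0 were called in the other 3 comparisons. Bdnf, whose activity-driven promoter is a CREB target, did not pass in sPIA against mPIA males (62.9 ± 9.88 CPM and 63.1 ± 5.5 CPM, SD, n = 4 each). Counts per gene do not separate the transcripts of that promoter.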

How the data were processed

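Polyadenylated RNA of mouse hippocampus was sequenced in 23 libraries, with kits of the RNAqueous and TruSeq lines, per the labels' protocols. The authors deposited raw counts of reads per gene, as whole numbers without scaling. FastQC, TopHat2 (version 2.0.13), Subread and edgeR with build mm10 are named, per the submitters' processing notes. The annotation and strand setting are not given there. All columns were matched to samples by name, and 0 were left over.

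Genes with low counts were removed (filterByExpr, minimum count 10, minimum total 15). Counts were scaled by TMM and fitted over 6 group means with edgeR 4.0.16 (quasi-likelihood, robust) in R 4.3.3, with Benjamini-Hochberg adjustment over all genes at 0.05, and checked on simulated counts. CPM values are TMM-scaled. DESeq2 1.42.0 and limma 3.58.1 (voom) were alternatives, with other scaling, no filter, fewer groups, covariates, GC offsets and single libraries left out. Transcript length, GC content and positions came from GENCODE M21, and promoters from RefSeq. Replicates of a group differed by more than counting noise (chi-square over its degrees of freedom 3.03 to 30.7), and p-values measure the spread between these pups. Same-numbered libraries did not deviate together throughout (r -0.08 to 0.15), so the numbers were not taken as pairs.

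The members and lists were chosen with earlier results of these data known. All values are given for Fos, Egr1, Arc and Npas4 and for up to 4 members per comparison with the smallest p past the threshold. Of the 2 other lists, Bdnf and up to 4 called genes per comparison are named. Other members, the cell markers and Creb1's values in males were named after their values were seen.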

Additional observations from a re-analysis of the deposited data

Results flagged for a closer look

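Single libraries lay far from the rest of their group in 2 of the 55 combinations of a fully reported member and a group of 4, where chance gives about 1 in 20. Egr4 stood at 14.84 CPM in sPIA female 3 and at 12.97 to 13.09 CPM in the other sPIA females, a gap of 0.93 of the group's range. Fosl2 stood at 60.43 CPM in sPIA female 2 and at 50.46 to 51.42 CPM in the other sPIA females, a gap of 0.90 of the range. Both libraries lie on the side of the NBC and mPIA females. The effect of sPIA differed between the sexes, by edgeR's test of the difference, for 2 genes outside the members that are named above. For Creb1 the female minus male difference in log2 change was 0.49 (adjusted p = 0.0488). For Fezf2 it was -0.94 (SE 0.20, adjusted p = 0.0271), with means of 24.4 CPM in sPIA and 49.7 CPM in NBC females, and of 32.6 CPM in sPIA and 34.6 CPM in NBC males. Fezf2 was nevertheless called lower in sPIA males when they were set against mPIA males.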

How the results depend on the processing

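Counts of called members were recomputed with RLE scaling, no low-count filter, DESeq2, limma-voom, only the compared groups, a choroid plexus covariate, the GC trend removed and each library left out. For mPIA against NBC males (1 call, Nr4a1) DESeq2 called 3 members, the fit on only those groups 0 and the choroid plexus covariate 0, and leaving out 1 library gave 0 to 11, the highest without NBC male 2. For sPIA against NBC males DESeq2 called 1, and for sPIA against mPIA males removing the GC trend left 4 of 9. Leaving out 1 library gave 7 to 13 calls in sPIA against mPIA females (7 without mPIA female 3), 5 to 10 in sPIA against mPIA males (5 without mPIA male 2), 0 to 3 for the sex difference of mPIA and 0 to 1 for that of sPIA, where 3 and 1 came without NBC male 2. All other counts stayed within 1.5 times. With the replicate number as a block, the counts in the order of the 6 comparisons and 2 sex differences were 0, 1, 9, 0, 11, 9, 0 and 0. The numbers do not pair the libraries (in no comparison did every pair of same-numbered libraries correlate above 0.1), and the block together with the GC trend removed, planned for the case that they do, was not run. In mPIA against NBC females 3 of 4 pairs were above 0.1, the sample codes share first numbers across both groups, and a fit with that number as a block also called 0 members. First numbers of the codes also recur within groups and across NBC and sPIA pups, and were not used as a block in the other comparisons. The members' median change moved by more than its spread in 1 alternative for sPIA against NBC females (-0.03, GC trend removed). It did so in 1 for mPIA against NBC males (0.10, choroid plexus covariate). For sPIA against mPIA females 2 alternatives moved it, among them the GC trend removed (-0.14). For the sex difference of sPIA, 3 alternatives moved the median of -0.08. Its values ran from -0.24 without NBC male 2 to 0.09 without NBC male 4. Of the alternative values of the fully reported members, 1495 kept their side of the threshold, 37 lost it and 19 gained it. With a call in either fit, 0 changed sign. Values called in neither fit count as kept even where their sign changed. Npas4 in sPIA against NBC males, for one, stood at -0.19, but at 0.39 without NBC male 2. The causes were not tested. Depth limits Atf3, Maff and Inhba, at 0.337 to 0.734 RPKM, and Fosl1 could not be tested.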
